A study of Mus musculus with 28 samples.

Results

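Described here are 32 genes of the endoplasmic reticulum (ER) chaperone machinery and the unfolded protein response, chosen by name and matched by symbol among the 56748 Ensembl gene identifiers counted in total RNA of mouse mammary cell lines. All 32 had an identifier, and all 32 passed the filter on low counts in both comparisons. The libraries were 10 of HC11 cells labelled DOX + DIP, 8 of 4T1 cells labelled DOX and 10 of HC11 cells labelled DOX. HC11 cells are untransformed mammary epithelial cells, first cultured from a pregnant mouse, that can be brought to make milk proteins in culture. The 4T1 line came from a mouse mammary tumour and forms metastases. Every library carried DOX, so no library without it was compared. The labels spell out neither DOX nor DIP and give no dose, time, culture or passage. For HC11 cultures the letters DIP commonly mean dexamethasone, insulin and prolactin, the hormones that start milk protein synthesis. The comparison of DOX + DIP with DOX in HC11 asks what DIP changed, and that of 4T1 with HC11 asks how a cancer line differs from an untransformed one. With 1 line on each side of the 4T1 comparison, cancer cannot be told apart from any other difference between the lines. Because the labels name no cultures, p-values measure only the spread between these libraries.

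Secreted and membrane proteins enter the ER through the Sec61 channel, fold there with chaperones and disulfide isomerases, and are returned to the cytosol for degradation if they fail to fold. Unfolded protein activates the sensors IRE1 (gene Ern1), ATF6 and PERK (gene Eif2ak3), which splice the mRNA of the transcription factor XBP1, release a transcription factor by cleavage of ATF6 itself, and slow translation. Mammary epithelium enlarges its ER when it begins to secrete milk proteins. Gene counts show the level of each mRNA and neither its splicing nor the cleavage or phosphorylation of a protein. In RNA of whole cultures, fewer cells expressing a gene and less of its RNA per cell cannot be told apart.

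ATF6 and XBP1 act on many of these genes through the ER stress response element, written here as CCAAT, any 9 bases, then CCACG, or through a second form, ATTGG, any 1 base, then CCACG. Promoter windows from 250 bases before to 50 bases after the start were taken from RefSeq (build GRCm38.p6) for 27 members, with Ero1l found under its newer name. Atf6, Derl1, Hyou1, Manf and Sec61a1 had no window in that set. Both strands were searched, and no match of one form overlapped a match of the other. The first form was found in 9 of the 27 windows (33.3%), against 39 of all 32851 windows (0.119%), and the second in 2 of 27 (7.41%), against 12 (0.0365%). A match is a run of letters and not a measured binding site. The matches are shown because genes that share a form were called in opposite directions with DIP. Among genes with the first form, the rises were those of Dnajc3 and Syvn1, calls that some other fits described below lost. Each match is read 5′ to 3′ on the strand that holds it, with the fixed letters in capitals. Hsp90b1 has a pair of matches.
Hspa5: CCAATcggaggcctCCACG
Hsp90b1: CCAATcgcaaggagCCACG
Hsp90b1: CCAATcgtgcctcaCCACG
Dnajb11: ATTGGcCCACG
Dnajc3: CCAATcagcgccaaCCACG
Creld2: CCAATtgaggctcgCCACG
Calr: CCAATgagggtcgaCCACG
Canx: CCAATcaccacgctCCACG
Pdia6: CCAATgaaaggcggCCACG
Herpud1: ATTGGgCCACG
Syvn1: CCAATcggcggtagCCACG
Derl3: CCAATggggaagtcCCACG

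The 250 bases before the start are printed for 5 members with a match, 1 not called with DIP and higher in 4T1 (Hspa5), a pair that fell with DIP (Hsp90b1, Calr) and a pair that rose with DIP (Herpud1, Syvn1). Sequences are 5′ to 3′ on the strand of the gene in GRCm38.p6, with the fixed letters of each match in capitals. A match on the other strand appears as its reverse complement, in which CGTGG precedes ATTGG.
Hspa5, chr2:34771840-34772089, plus strand: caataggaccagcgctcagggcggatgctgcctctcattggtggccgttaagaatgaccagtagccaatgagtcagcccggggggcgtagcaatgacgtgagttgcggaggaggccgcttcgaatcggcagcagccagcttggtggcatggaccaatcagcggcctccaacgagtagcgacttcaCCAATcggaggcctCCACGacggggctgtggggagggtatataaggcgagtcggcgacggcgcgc
Hsp90b1, chr10:86705445-86705694, minus strand: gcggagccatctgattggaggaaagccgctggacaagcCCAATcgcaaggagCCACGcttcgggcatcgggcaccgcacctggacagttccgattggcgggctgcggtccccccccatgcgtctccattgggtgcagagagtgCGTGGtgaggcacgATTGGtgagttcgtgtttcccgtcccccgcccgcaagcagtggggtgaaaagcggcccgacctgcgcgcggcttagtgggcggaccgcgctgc
Calr, chr8:84846932-84847181, minus strand: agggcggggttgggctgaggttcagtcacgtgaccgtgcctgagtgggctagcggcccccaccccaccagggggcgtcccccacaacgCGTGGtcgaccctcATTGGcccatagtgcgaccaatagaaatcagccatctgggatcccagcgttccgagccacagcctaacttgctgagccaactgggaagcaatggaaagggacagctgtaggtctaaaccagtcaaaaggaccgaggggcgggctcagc
Herpud1, chr8:94386179-94386428, plus strand: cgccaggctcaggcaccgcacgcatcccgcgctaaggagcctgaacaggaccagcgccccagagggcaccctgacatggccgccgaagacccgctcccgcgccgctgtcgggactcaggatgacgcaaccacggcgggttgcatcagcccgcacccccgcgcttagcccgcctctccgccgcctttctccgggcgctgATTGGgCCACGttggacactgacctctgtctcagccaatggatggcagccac
Syvn1, chr19:6046326-6046575, plus strand: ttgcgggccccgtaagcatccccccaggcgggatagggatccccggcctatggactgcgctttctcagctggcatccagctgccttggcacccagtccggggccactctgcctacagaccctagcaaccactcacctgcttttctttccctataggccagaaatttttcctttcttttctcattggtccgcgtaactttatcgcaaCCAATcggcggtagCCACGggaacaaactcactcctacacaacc

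Of the 11 members with either form, 3 rose, 4 fell and 4 were not called with DIP, and 1 was higher, 4 were lower and 6 were not called in 4T1. Over all genes tested, 45.5% were called with DIP and 69.9% in 4T1. Of the 16 members with a window but no match, 7 rose and 7 fell with DIP, and 4 were higher and 9 lower in 4T1. The median log2 fold change with DIP was -0.32 over the members with a match and 0.07 over those without. The ranges of both sets spanned rises and falls.

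Libraries held 134117581 to 222065843 counts in the HC11 DOX + DIP group, 174275141 to 198008179 in the 4T1 group and 135955692 to 185616382 in the HC11 DOX group. Values are read counts scaled to the library total (CPM, the usual unit of normalised counts), adjusted with TMM factors. The epithelial markers Epcam and Cdh1 were present in every library, at 43.4 CPM or more. Of the 6 epithelial markers, 1 rose with DIP (Krt18, log2 fold change 1.03) and 3 fell (Krt5 -2.68, Krt14 -2.11 and Cdh1 -0.56). In 4T1, 2 were higher (Krt18 5.85 and Krt8 2.92) and 3 lower (Krt5 -6.65, Krt14 -3.01 and Epcam -1.41). These are 66.7% called with DIP and 83.3% in 4T1, against 45.5% and 69.9% of all genes tested. The 6 summed to 429 to 2202 CPM in HC11 DOX + DIP, 2132 to 3045 CPM in 4T1 and 3383 to 8009 CPM in HC11 DOX libraries. The leukocyte marker Ptprc and the endothelial marker Kdr did not exceed 0.0613 CPM in any library and were not tested. Of the other 4 markers, the macrophage gene Cd68 (log2 fold change 1.39) and the fibroblast gene Pdgfrb (1.24) rose with DIP. The endothelial gene Pecam1 fell (-2.06), and the fibroblast gene Col1a1 was not called. In 4T1 Cd68 was higher (1.18) and Pecam1 (-4.19), Col1a1 (-4.51) and Pdgfrb (-5.615) were lower. The 6 markers of leukocytes, endothelium and fibroblasts summed to 7.07 to 146 CPM in HC11 DOX + DIP, 4.98 to 11.9 CPM in 4T1 and 25.7 to 80.5 CPM in HC11 DOX libraries. By mean level, most of this sum came from Col1a1 and Pdgfrb in HC11 and from Cd68 in 4T1. DIP library 1 had the lowest HC11 sum, 7.07 CPM, and need not share that make-up. The part of these markers in the results was not tested. The 10 cell cycle genes fell with DIP in 10 of 10 cases (median log2 fold change -4.17), and 7 of 10 were higher in 4T1 (median 0.44). The 4T1 share, 70.0%, was near the 69.9% of all genes called there. The 8 glucocorticoid response genes rose with DIP in 7 of 8 cases (87.5% called, median 2.44). In 4T1 1 of the 7 tested was higher and 5 were lower (85.7% called, median -0.67). The part of these changes, markers included, in the values of the chaperone genes was not tested.

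Libraries 8 and 10 of the HC11 DOX + DIP group stood apart from the other 8. Their mean log2 CPM over the glucocorticoid response genes was 3.99 and 4.07. The remaining DIP libraries had 5.71 to 6.85, and the HC11 DOX libraries 2.98 to 3.35. The 6 epithelial markers summed to 429 and 522 CPM in libraries 8 and 10, against 1458 to 2202 CPM in the remaining DIP libraries. The part of these differences in the members' values was not tested. Libraries 8 and 10 both lay above all other 8 DIP libraries for 12 members, below all of them for 1 member, Herpud1, and inside or partly inside their range for 19. The 12 were Hspa5, Hyou1, Dnajb9, Manf, Canx, Ern1, Atf6, Edem1, Syvn1, Derl1, Derl3 and Sec61a1. At the other end, DIP libraries 3 and 5 held the lowest pair of values for 12 members, namely Hspa5, Hsp90b1, Dnajb11, Sdf2l1, Manf, Creld2, Calr, Pdia3, Wfs1, Edem1, Selenos and Ssr1. Libraries 7 and 9 held the highest pair for 8 members, Xbp1 and Herpud1 among them. None of these counts was taken over all genes, so they are not shown to be particular to the members. Over all genes tested, libraries 3 and 5, 7 and 9, and 8 and 10 were each other's nearest in the group. The median distance to the group, as root mean square log2 difference, was 0.965 and 0.944 for libraries 8 and 10. For the other DIP libraries it was 0.415 to 0.628. The labels give no reason for these likenesses between libraries. The median SD of log2 CPM over the 32 members was 0.37 in HC11 DOX + DIP, 0.13 in 4T1 and 0.22 in HC11 DOX libraries. It was 0.34 in the DIP group without libraries 8 and 10. With all libraries, the SD was larger in the DIP than in the HC11 DOX group for 27 of the 32 members. Without DIP libraries 8 and 10 it was larger for 24. The same was not counted over all genes. Wfs1 had the smallest spread of all members with DIP, with an SD of 0.17.

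**Figure D1:**
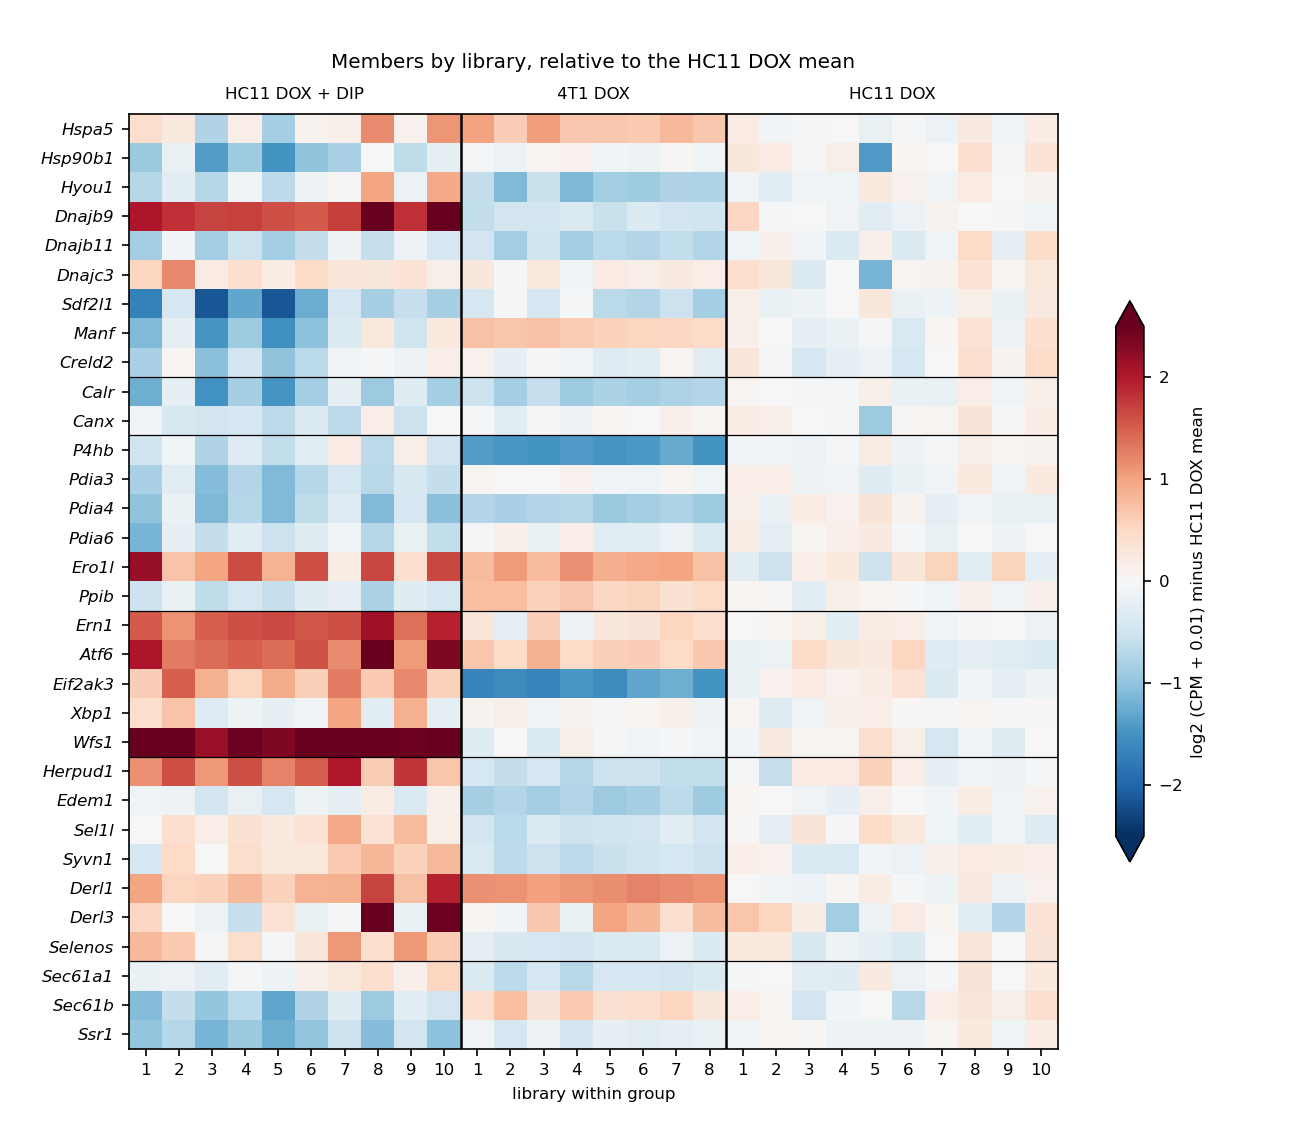
Each cell is the log2 (CPM + 0.01) of 1 member (rows, by role) in 1 library (columns, by group) minus the mean of that member over the 10 HC11 DOX libraries. Colours are limited to the range of the bar. Wfs1 and Dnajb9 are red in all 10 DIP libraries and P4hb and Eif2ak3 are blue in all 8 4T1 libraries, and DIP libraries 8 and 10 differ from their group in many rows.

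With DIP, 12 members rose and 12 fell at an adjusted p under 0.05, and 8 were not called. The share called was 75.0% of the members, against 45.5% of all 23829 genes tested (24.5% higher and 21% lower). The members were chosen with earlier results of these data known. All but Derl3 had a mean log2 CPM of 4.63 or more, and no share over genes of like level was taken. The rises were the larger changes. At least 2-fold rises were found for 7 members, Dnajb9, Ero1l, Ern1, Atf6, Wfs1, Herpud1 and Derl1, against 10.7% of all genes. A fall of at least 2-fold was found for 1 member, Sdf2l1, against 9.53% of all genes. The DIP and DOX libraries did not overlap for 7 members that were higher with DIP (4.76% of all genes) and 3 that were lower (6.66%), with 11.4% of all genes in either direction. The median log2 fold change was 0.08 over the members and 0.06 over all genes. Sensors, Wfs1 and degradation genes accounted for 9 of the 12 rises, and chaperones, lectins, isomerases and translocon genes for all 12 falls. Without DIP libraries 8 and 10, 11 members rose and 15 fell, with a median of -0.15 and 27% of all genes higher and 25.4% lower. The tests were edgeR's quasi-likelihood tests with Benjamini-Hochberg adjustment over all genes.

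In 4T1, 8 members were called higher and 15 lower than in HC11 DOX, and 9 were not called. The share called was 71.9%, near the 69.9% of all 23875 genes tested (34.3% higher and 35.6% lower). The changes were mostly under 2-fold. Derl1 was the 1 member at least 2-fold higher (12.6% of all genes), and P4hb and Eif2ak3 were at least 2-fold lower (20.1% of all genes). Libraries did not overlap for 5 members higher in 4T1 (19.5% of all genes) and 9 lower (17.5%), with 37% of all genes in either direction. The median log2 fold change was -0.16 over the members and -0.01 over all genes. With total counts as the only scaling, the median over all genes moved to -0.24, and 6 members were called higher and 21 lower. That scaling also moved the split over all genes to 25% higher and 44.7% lower.

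Both comparisons used the same 10 HC11 DOX libraries, so their calls are set side by side and not counted as separate evidence. Ero1l, Ern1, Atf6 and Derl1 rose in both, and Dnajb11, Sdf2l1, Calr, P4hb, Pdia4 and Ssr1 fell in both. Dnajb9, Eif2ak3, Herpud1, Sel1l, Syvn1 and Selenos rose with DIP and were lower in 4T1. Manf, Ppib and Sec61b fell with DIP and were higher in 4T1. Some of these pairings rest on calls lost when 1 library was left out. They were Ern1 in 4T1 (lost in 10 of 18 fits) and, with DIP, P4hb (13 of 20) and Manf (15 of 20). Creld2, Canx, Xbp1 and Derl3 were called in neither comparison.

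**Figure D2:**
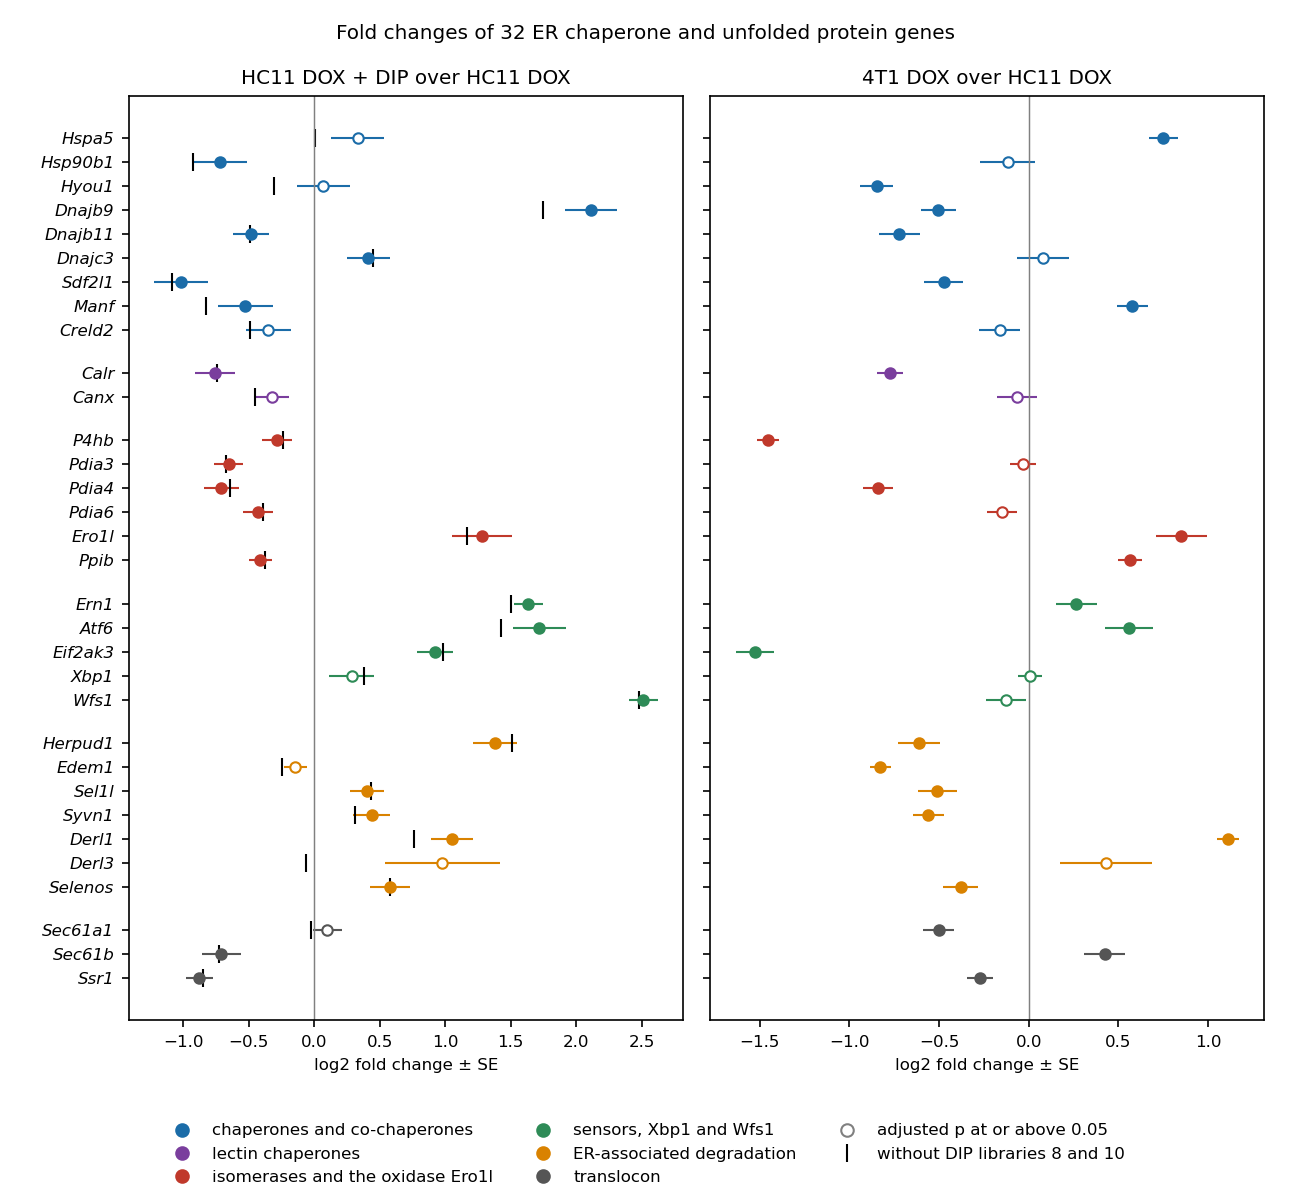
Points are log2 fold changes of the 32 members with their standard errors (horizontal bars), with DIP on the left and in 4T1 on the right, both over HC11 DOX. Colours give the role, hollow points an adjusted p at or above 0.05, and black ticks the value without DIP libraries 8 and 10. On the left the sensors reach 1.72 (Atf6) and Wfs1 2.51, and the isomerases lie below 0 while the oxidase Ero1l lies at 1.28.

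All 3 sensors (Ern1, Atf6, Eif2ak3) and Wfs1 rose with DIP, and the transcription factor gene Xbp1 was not called. The median log2 fold change of these 5 genes was 1.64. With DIP 80.0% of them were called, against 45.5% of all genes, and in 4T1 60.0%, below the 69.9% of all genes. Every DIP library was above every HC11 DOX library for the 4 that rose, as for 4.76% of all genes. In 4T1 the sensors went separate ways, with Ern1 and Atf6 higher and Eif2ak3 lower. The calls with DIP were the same without libraries 8 and 10, where the median was 1.43.

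Wfs1 encodes wolframin, an ER membrane protein that regulates calcium and restrains ATF6. Its level was 34.5 to 49.1 CPM (median 45.0) in HC11 DOX + DIP, 6.11 to 8.67 CPM (median 7.54) in 4T1 and 5.78 to 10.2 CPM (median 7.96) in HC11 DOX libraries. Every DIP library, 8 and 10 included, was far above every other library, and 4T1 and HC11 DOX libraries covered the same range. The log2 fold change with DIP was 2.51 ± 0.11 (SE; adjusted p = 7.03e-13), or 5.71-fold, the largest rise among the members. In 4T1 it was -0.13 ± 0.11 (adjusted p = 0.316).

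Ern1 encodes IRE1, the kinase and endonuclease that splices Xbp1 mRNA. It had 37.9 to 75.3 CPM (median 51.8) in HC11 DOX + DIP, 14.7 to 26.3 CPM (median 21.7) in 4T1 and 14.6 to 19.9 CPM (median 17.3) in HC11 DOX libraries. The lowest DIP library was above all libraries of the other groups, which overlapped each other. With DIP the log2 fold change was 1.64 ± 0.11 (adjusted p = 9.43e-11). The 4T1 difference was 0.27 ± 0.11 (adjusted p = 0.0419), and this call was lost in 10 of 18 fits that left out 1 library and under all 5 other scalings, tools and sample sets that used all libraries with the filter.

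Xbp1, the mRNA that IRE1 splices, did not pass the test in either comparison. Its range was 53.0 to 131 CPM (median 61.5) in HC11 DOX + DIP, 60.5 to 73.2 CPM (median 69.2) in 4T1 and 53.1 to 73.4 CPM (median 67.1) in HC11 DOX libraries. DIP libraries 7 and 9 held the highest pair of values, and the other groups lay within the DIP range. The log2 fold changes were 0.29 ± 0.17 with DIP (adjusted p = 0.179) and 0.01 ± 0.07 in 4T1 (adjusted p = 0.942). The 4T1 value changed sign under other scalings and was -0.22 (adjusted p = 0.00236) with total counts only.

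Atf6 encodes the membrane-bound sensor whose cut fragment enters the nucleus. It had 78.0 to 237 CPM (median 102) in HC11 DOX + DIP, 51.3 to 69.2 CPM (median 57.5) in 4T1 and 29.5 to 54.3 CPM (median 33.4) in HC11 DOX libraries. All DIP libraries lay above all HC11 DOX libraries, while 4T1 and HC11 DOX libraries overlapped at 51.3 to 54.3 CPM. The log2 fold change was 1.72 ± 0.20 with DIP (adjusted p = 5.48e-07), or 1.43 without libraries 8 and 10, which had 237 and 189.6 CPM. In 4T1 it was 0.56 ± 0.13 (adjusted p = 0.000873).

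Eif2ak3 encodes PERK, the kinase that slows translation by phosphorylating eIF2alpha. Its level was 43.4 to 84.7 CPM (median 50.9) in HC11 DOX + DIP, 9.36 to 12.7 CPM (median 10.3) in 4T1 and 23.3 to 38.5 CPM (median 30.2) in HC11 DOX libraries. The groups formed separate ranges, with DIP libraries on top and 4T1 libraries at the bottom. The log2 fold change was 0.92 ± 0.14 with DIP (adjusted p = 1.51e-05) and -1.53 ± 0.11 in 4T1 (adjusted p = 1.17e-10), the largest fall of any member in 4T1. A partly overlapping gene on the other strand, Gm43292, covers 8.05% of its exonic bases, and the strand setting of the counts is not known.

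**Figure D3:**
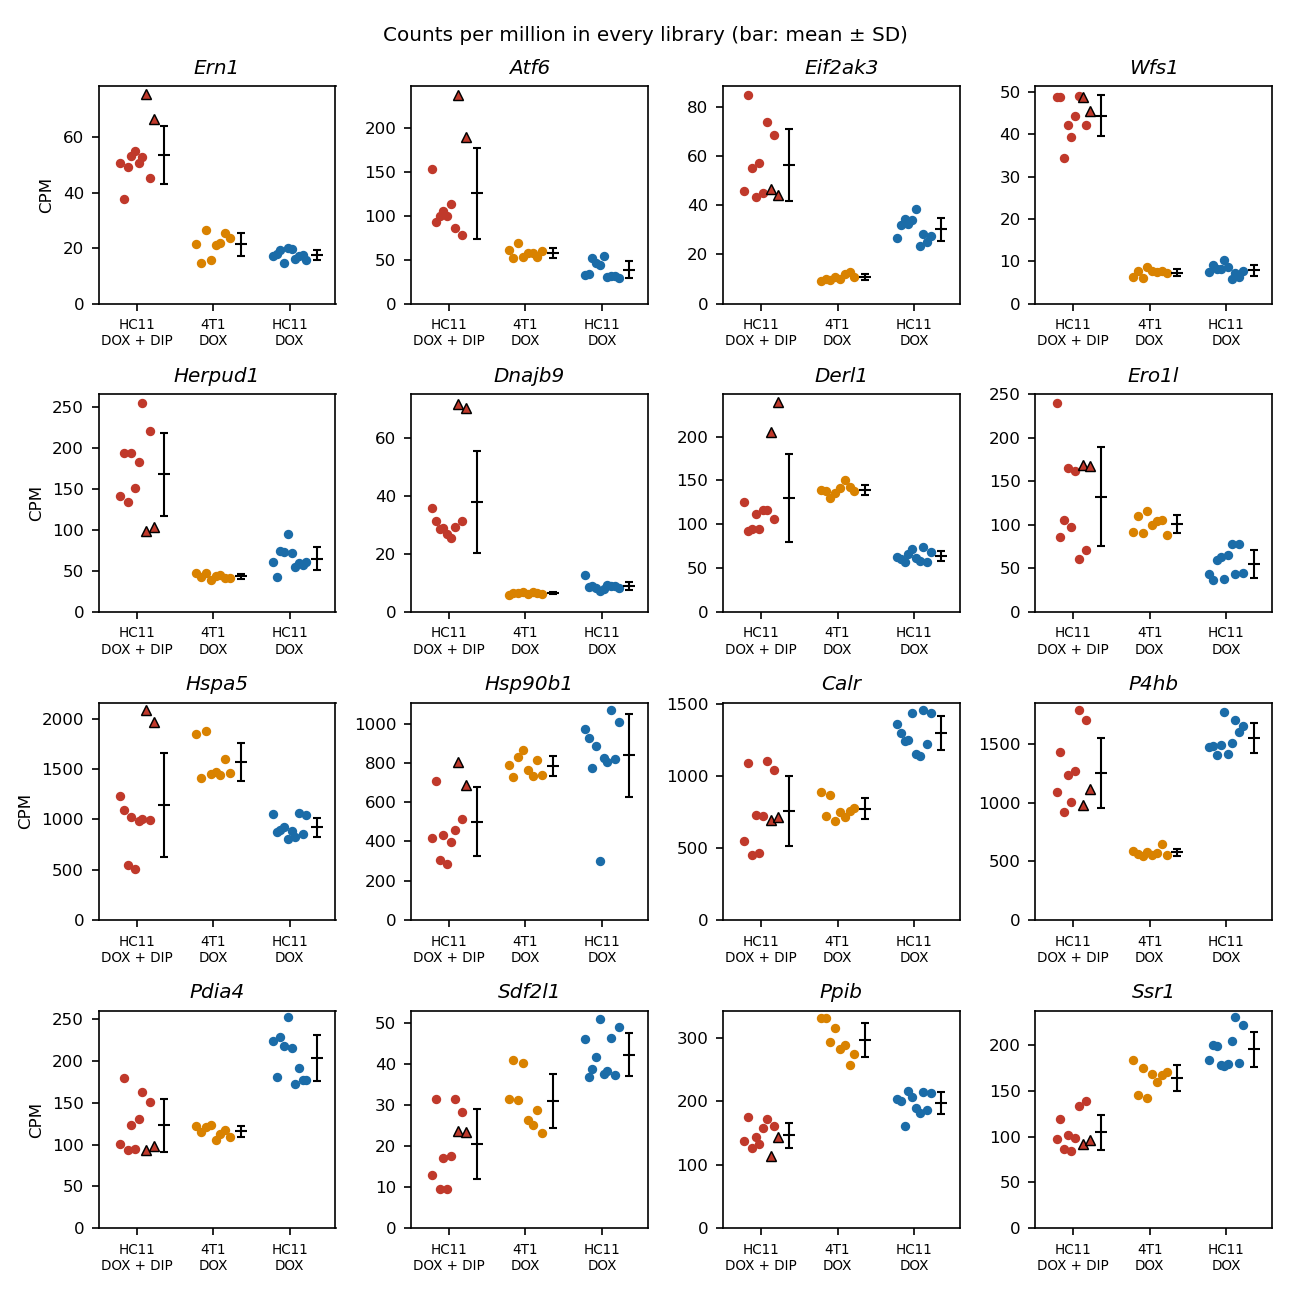
CPM (vertical axes, from 0) of 16 members in each library of the 3 groups, with a bar for the mean ± SD. Triangles mark DIP libraries 8 and 10. Ern1, Atf6, Eif2ak3, Wfs1, Herpud1, Dnajb9 and Derl1 have every DIP library above every HC11 DOX library, and Calr, Sdf2l1 and Ssr1 every DIP library below.

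Among the degradation genes, 5 of 7 rose with DIP (Herpud1, Sel1l, Syvn1, Derl1, Selenos) and Edem1 and Derl3 were not called (median 0.58 on the log2 scale). In 4T1, 1 of 7 was higher (Derl1) and 5 were lower (Herpud1, Edem1, Sel1l, Syvn1, Selenos), with a median of -0.51. The shares called were 71.4% with DIP and 85.7% in 4T1, against 45.5% and 69.9% of all genes. Without DIP libraries 8 and 10, 4 rose and 1 fell with DIP, with a median of 0.43.

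Herpud1 encodes a membrane protein that recruits substrates to the HRD1 ubiquitin ligase. It had 98.9 to 254 CPM (median 167) in HC11 DOX + DIP, 38.8 to 46.9 CPM (median 42.9) in 4T1 and 42.8 to 94.2 CPM (median 61.3) in HC11 DOX libraries. All DIP libraries were above all HC11 DOX libraries, although libraries 8 and 10, at 98.9 and 103 CPM, were only just so. With DIP the log2 fold change was 1.38 ± 0.17 (adjusted p = 8.59e-07), and in 4T1 it was -0.61 ± 0.12 (adjusted p = 0.000108). Its promoter carries the second form of the element printed above.

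Derl1 encodes derlin-1, a channel component through which proteins leave the ER. Its level was 91.9 to 239 CPM (median 114) in HC11 DOX + DIP, 129.7 to 150.3 CPM (median 138) in 4T1 and 57.03 to 74.1 CPM (median 61.7) in HC11 DOX libraries. Both DIP and 4T1 libraries lay above all HC11 DOX libraries, and the highest pair of DIP values were those of libraries 8 and 10. Fitted on the log2 scale, the change was 1.05 ± 0.16 with DIP (adjusted p = 1.78e-05), or 0.76 without those libraries, and 1.11 ± 0.06 in 4T1 (adjusted p = 3.89e-12).

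Edem1 encodes a lectin that trims mannose and passes misfolded glycoproteins to degradation. It had 65.9 to 105 CPM (median 82.6) in HC11 DOX + DIP, 49.3 to 58.9 CPM (median 52.0) in 4T1 and 79.7 to 105 CPM (median 91.2) in HC11 DOX libraries. Every 4T1 library was below every HC11 library. The 4T1 log2 fold change was -0.83 ± 0.06 (adjusted p = 1.84e-10). With DIP it was -0.14 ± 0.09 (adjusted p = 0.206), and without libraries 8 and 10 it was -0.25 (adjusted p = 0.00723).

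Sel1l and Syvn1 encode the adaptor and the catalytic subunit of the HRD1 ligase, and Selenos a selenoprotein of the same pathway. With DIP the log2 fold changes were 0.40 ± 0.13 for Sel1l (adjusted p = 0.0159), 0.44 ± 0.14 for Syvn1 (adjusted p = 0.0134) and 0.58 ± 0.15 for Selenos (adjusted p = 0.00377). In 4T1 they were -0.51 ± 0.11 for Sel1l, -0.56 ± 0.09 for Syvn1 and -0.38 ± 0.10 for Selenos, with adjusted p of 0.000407, 6.77e-06 and 0.00207. Groups overlapped for all 3 genes in both comparisons. The rise of Syvn1 was 0.31 without DIP libraries 8 and 10 (adjusted p = 0.0503). Derl3, a paralog of Derl1, was the lowest member, at means of 0.244 ± 0.266 CPM in HC11 DOX + DIP, 0.170 ± 0.0535 CPM in 4T1 and 0.125 ± 0.0442 CPM in HC11 DOX libraries (SD, n = 10, 8 and 10). Its DIP libraries 8 and 10 had 0.796 and 0.691 CPM, and the other 8 had 0.0765 to 0.173 CPM. The log2 fold change with DIP was 0.98 ± 0.44 (adjusted p = 0.0739), or -0.07 without that pair.

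Among the chaperones and co-chaperones, 2 of 9 rose with DIP (Dnajb9, Dnajc3) and 4 fell (Hsp90b1, Dnajb11, Sdf2l1, Manf), and the median was -0.35 on the log2 scale. In 4T1, 2 were higher (Hspa5, Manf) and 4 lower (Hyou1, Dnajb9, Dnajb11, Sdf2l1), with a median of -0.16. The share called was 66.7% in both comparisons, against 45.5% of all genes with DIP. In 4T1 it was near the 69.9% of all genes. Without DIP libraries 8 and 10, 2 rose and 6 fell with DIP.

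Hspa5 encodes BiP, the main ER chaperone, which also holds the sensors inactive. It had 509.5 to 2083 CPM (median 1012) in HC11 DOX + DIP, 1415 to 1881 CPM (median 1465) in 4T1 and 803 to 1067 CPM (median 889) in HC11 DOX libraries. The DIP libraries covered the whole range of the HC11 DOX libraries and went beyond it on both sides, with libraries 8 and 10 at 2083 and 1969 CPM and libraries 3 and 5 at 546 and 509.5 CPM. Every 4T1 library was above every HC11 DOX library. Measured as log2 fold change, it was 0.33 ± 0.20 with DIP (adjusted p = 0.188), 0.01 without libraries 8 and 10 (adjusted p = 0.968), and 0.75 ± 0.08 in 4T1 (adjusted p = 5.92e-08).

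Hsp90b1 encodes GRP94, the ER member of the HSP90 family. Its level was 284 to 806 CPM (median 447) in HC11 DOX + DIP, 728 to 864 CPM (median 776) in 4T1 and 299 to 1068 CPM (median 855) in HC11 DOX libraries. HC11 DOX library 5, at 299 CPM, was far below the 772 to 1068 CPM of its group, and DIP library 8 was the highest with DIP. On the log2 scale the change was -0.72 ± 0.21 with DIP (adjusted p = 0.00745), or -0.92 without DIP libraries 8 and 10. In 4T1 it was -0.12 ± 0.15 (adjusted p = 0.5), and without HC11 DOX library 5 it was -0.25 (adjusted p = 0.00384). A pseudogene transcribed from the other strand, 1810014B01Rik, overlaps 10.3% of its exonic bases.

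Hyou1 encodes GRP170, a nucleotide exchange factor of BiP. It had 178 to 579.8 CPM (median 267) in HC11 DOX + DIP, 135 to 199 CPM (median 167) in 4T1 and 243 to 349 CPM (median 284) in HC11 DOX libraries. DIP libraries 8 and 10, at 579.8 and 569 CPM, were above every other library, and all 4T1 libraries were below all HC11 DOX libraries. The 4T1 log2 fold change was -0.85 ± 0.09 (adjusted p = 9.56e-08). With DIP it was 0.07 ± 0.20 (adjusted p = 0.81), and its sign turned without libraries 8 and 10, to -0.30 (adjusted p = 0.0261).

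Dnajb9, or ERdj4, is a co-chaperone that brings BiP to misfolded proteins and to IRE1. Its range was 25.5 to 71.7 CPM (median 30.3) in HC11 DOX + DIP, 5.78 to 6.95 CPM (median 6.36) in 4T1 and 7.28 to 12.6 CPM (median 8.71) in HC11 DOX libraries. The ranges of the groups were separate, with DIP highest and 4T1 lowest, and DIP libraries 8 and 10 were at 71.7 and 70.2 CPM. Its fitted log2 fold change was 2.11 ± 0.20 with DIP (adjusted p = 2.18e-08), or 1.75 without that pair, and -0.50 ± 0.10 in 4T1 (adjusted p = 0.0001).

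Sdf2l1 works with the J-domain co-chaperone Dnajb11 and keeps folding clients from aggregating. It had 9.60 to 31.6 CPM (median 20.6) in HC11 DOX + DIP, 23.3 to 41.1 CPM (median 30.1) in 4T1 and 36.9 to 51.0 CPM (median 40.2) in HC11 DOX libraries. No DIP library reached the lowest HC11 DOX library, and the 4T1 libraries overlapped both groups. Fitted on the log2 scale, the change was -1.02 ± 0.20 with DIP (adjusted p = 0.000316) and -0.47 ± 0.11 in 4T1 (adjusted p = 0.00057). Dnajb11 itself, or ERdj3, fell by 0.48 ± 0.14 on the log2 scale with DIP (adjusted p = 0.00728) and by 0.72 ± 0.11 in 4T1 (adjusted p = 1e-05).

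Manf encodes a secreted cofactor of BiP, and its calls were opposite, at -0.53 ± 0.21 with DIP (adjusted p = 0.0467) and 0.58 ± 0.09 in 4T1 (adjusted p = 6.81e-06). The fall with DIP was -0.82 without DIP libraries 8 and 10 (adjusted p = 0.000447). Every 4T1 library, at 161 to 194 CPM, was above every HC11 DOX library, at 89.6 to 152 CPM. Dnajc3, or p58IPK, a co-chaperone of BiP first described as an inhibitor of PERK and related kinases, had a log2 fold change of 0.41 ± 0.16 with DIP (adjusted p = 0.0463). That call was lost in 13 of 20 fits that left out 1 library, and the fall of Manf in 15 of 20. DIP library 2 had 131 CPM of Dnajc3, above the 62.7 to 82.3 CPM of its group. Creld2, a secreted protein with disulfide isomerase activity, had -0.35 ± 0.17 with DIP (adjusted p = 0.0978), and -0.49 without libraries 8 and 10 (adjusted p = 0.0192).

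The lectin chaperones hold glycoproteins while they fold. Calreticulin, encoded by Calr, had 456 to 1104 CPM (median 719) in HC11 DOX + DIP, 689.6 to 893 CPM (median 757) in 4T1 and 1144 to 1463 CPM (median 1277) in HC11 DOX libraries. All DIP and all 4T1 libraries were below all HC11 DOX libraries, and DIP libraries 2, 7 and 9 came nearest to them. Measured as log2 fold change, it was -0.76 ± 0.15 with DIP (adjusted p = 0.00036) and -0.77 ± 0.07 in 4T1 (adjusted p = 1.17e-08). Canx, which encodes the membrane-bound calnexin, had -0.32 ± 0.13 with DIP (adjusted p = 0.0501) and -0.07 ± 0.11 in 4T1 (adjusted p = 0.615). Its value in HC11 DOX library 5, 282 CPM, was below the 519 to 664 CPM of the other 9. Without that library Canx was lower in both comparisons, at -0.40 with DIP (adjusted p = 0.00492) and -0.18 in 4T1 (adjusted p = 0.0216), and without DIP libraries 8 and 10 it was -0.45 with DIP (adjusted p = 0.0046).

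The 5 isomerases (P4hb, Pdia3, Pdia4, Pdia6, Ppib) fell with DIP and the oxidase Ero1l rose, and the median of the 6 was -0.42 on the log2 scale. In 4T1, 2 were higher (Ero1l, Ppib) and 2 lower (P4hb, Pdia4), with a median of -0.09. The shares called were 100% with DIP, against 45.5% of all genes, and 66.7% in 4T1, near the 69.9% of all genes. Without DIP libraries 8 and 10, 4 of the 6 fell with DIP, P4hb being the call that was lost.

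Ero1l encodes the oxidase that recharges protein disulfide isomerase. It had 60.6 to 240 CPM (median 134.0) in HC11 DOX + DIP, 88.5 to 116 CPM (median 102) in 4T1 and 36.6 to 78.5 CPM (median 52.3) in HC11 DOX libraries. DIP libraries spread widely, with libraries 7 and 9 lowest and inside the HC11 DOX range, and 4T1 libraries were all above it. On the log2 scale the change was 1.28 ± 0.23 with DIP (adjusted p = 9.03e-05) and 0.85 ± 0.14 in 4T1 (adjusted p = 2.39e-05).

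P4hb encodes protein disulfide isomerase, which forms and rearranges disulfide bonds. Its level was 923 to 1789 CPM (median 1175) in HC11 DOX + DIP, 546 to 647 CPM (median 569) in 4T1 and 1404 to 1769 CPM (median 1498) in HC11 DOX libraries. The 4T1 libraries were all well below every HC11 library, and DIP libraries 7 and 9 were as high as HC11 DOX libraries. The log2 fold change in 4T1 was -1.45 ± 0.06 (adjusted p = 6.11e-14). With DIP it was -0.29 ± 0.12 (adjusted p = 0.0475), a call lost in 13 of 20 fits that left out 1 library and at -0.24 without DIP libraries 8 and 10 (adjusted p = 0.0896).

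Pdia4, also called ERp72, is another disulfide isomerase. It had 93.2 to 179.7 CPM (median 113) in HC11 DOX + DIP, 106 to 123 CPM (median 116) in 4T1 and 172 to 252 CPM (median 203) in HC11 DOX libraries. The highest DIP library was inside the HC11 DOX range, and all other DIP and all 4T1 libraries were below it. Its fitted log2 fold change was -0.71 ± 0.13 with DIP (adjusted p = 0.000171) and -0.84 ± 0.08 in 4T1 (adjusted p = 2.25e-08). Pdia3, the partner of the lectin chaperones, and Pdia6 had -0.65 ± 0.11 and -0.43 ± 0.11 with DIP (adjusted p = 5.36e-05 and 0.0037), and neither was called in 4T1. Ppib, a proline isomerase of the ER, had opposite calls, at -0.41 ± 0.09 with DIP (adjusted p = 0.000558) and 0.57 ± 0.07 in 4T1 (adjusted p = 2.99e-07). Its 4T1 libraries had 257 to 332 CPM, all above the 160.5 to 217 CPM of the HC11 DOX libraries. The gene Snx22, on the other strand, overlaps 25.0% of the exonic bases of Ppib.

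In the translocon, Sec61a1 and Sec61b encode channel subunits and Ssr1 a subunit of the translocon-associated protein complex. With DIP, 2 of 3 fell (Sec61b, Ssr1), and in 4T1 1 was higher (Sec61b) and 2 lower. The shares called were 66.7% with DIP and 100% in 4T1, against 45.5% and 69.9% of all genes. Ssr1 had 83.8 to 139 CPM (median 98.1) in HC11 DOX + DIP, 142 to 183 CPM (median 168) in 4T1 and 177 to 229.7 CPM (median 191) in HC11 DOX libraries. Every DIP library was below every other library, and 4T1 and HC11 DOX libraries overlapped. Fitted on the log2 scale, the change was -0.88 ± 0.10 with DIP (adjusted p = 3.88e-07) and -0.27 ± 0.07 in 4T1 (adjusted p = 0.00175).

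Sec61b had 24.0 to 48.9 CPM (median 35.9) in HC11 DOX + DIP, 71.2 to 99.0 CPM (median 78.9) in 4T1 and 36.4 to 77.9 CPM (median 63.3) in HC11 DOX libraries. Measured as log2 fold change, it was -0.71 ± 0.15 with DIP (adjusted p = 0.000441) and 0.42 ± 0.11 in 4T1 (adjusted p = 0.00259), a call lost with total counts only (0.19, adjusted p = 0.131). Every 4T1 library was above every DIP library, and HC11 DOX libraries overlapped both. Its partner Sec61a1 moved differently. It had 193 to 340.4 CPM (median 241) in HC11 DOX + DIP, 145 to 186 CPM (median 175) in 4T1 and 191 to 293 CPM (median 231) in HC11 DOX libraries. No 4T1 library reached the lowest HC11 DOX library, and DIP and HC11 DOX libraries overlapped. On the log2 scale the change was 0.10 ± 0.11 with DIP (adjusted p = 0.502) and -0.50 ± 0.09 in 4T1 (adjusted p = 3.53e-05).

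Levels of different members were compared as CPM per kilobase of exon, with all annotated exons of a gene in its length. The order depends on that length, which can exceed that of the transcripts expressed here. P4hb was highest in HC11 DOX + DIP (438 ± 105, SD over libraries) and in HC11 DOX (542 ± 43.9), while Hspa5 was highest in 4T1 (372 ± 45.1). The leading 6 were the same genes in each group, namely P4hb, Calr, Hspa5, Hsp90b1, Pdia3 and Canx. With DIP, Hspa5 (270.3 ± 123) and Calr (263 ± 85.0) differed by less than their SD, as did P4hb (201 ± 11.5) and Hsp90b1 (194 ± 12.4) in 4T1 and Hspa5 (218 ± 22.9) and Hsp90b1 (208 ± 52.7) in HC11 DOX. Herpud1 ranked 7 of 32 with DIP (71.7 ± 21.6), 20 in 4T1 (18.5 ± 1.18) and 17 in HC11 DOX (27.8 ± 5.99). Derl3 was last in every group. The sensors were in the lower part of the order. Ern1 ranked 31 with DIP, 28 in 4T1 and 30 in HC11 DOX. Eif2ak3 ranked 30 with DIP, 31 in 4T1 and 27 in HC11 DOX. Atf6 ranked 24 with DIP, 26 in 4T1 and 28 in HC11 DOX. Wfs1 ranked 27 with DIP, 30 in 4T1 and 31 in HC11 DOX. Xbp1 stood higher, at rank 19 with DIP, 18 in 4T1 and 19 in HC11 DOX.

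**Figure D4:**
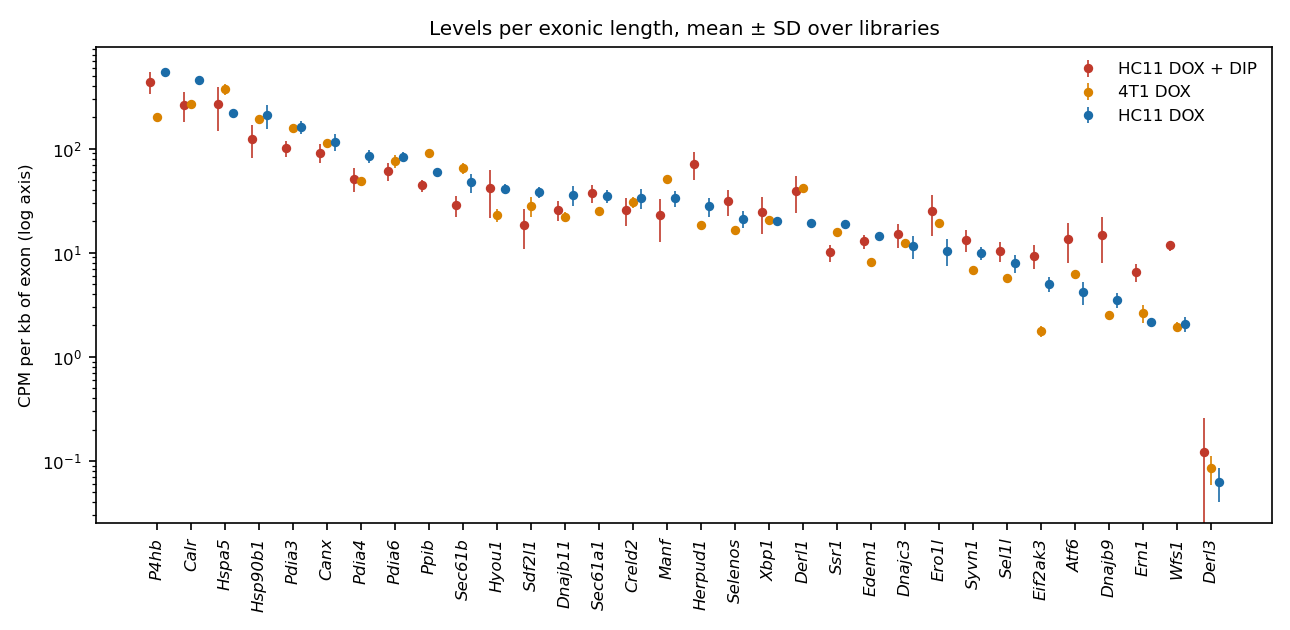
Points are means and bars SD over libraries of CPM per kilobase of exon (log axis) for the 32 members, ordered by their level in HC11 DOX. Among the 9 genes at the left, all but Hspa5 have a lower mean with DIP than in HC11 DOX, while Ern1, Atf6, Eif2ak3, Wfs1, Herpud1 and Dnajb9 have a higher one.

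Other genes of the same pathways were taken from 5 lists chosen by function, with earlier results of these data known. Their shares called are to be read against the 45.5% with DIP and 69.9% in 4T1 over all genes tested. Of 15 tested genes of unfolded protein response signalling, 9 rose with DIP and the other 6 were not called (60.0% called, median 0.86 on the log2 scale). The largest rises were of Ppp1r15a, a phosphatase subunit that reverses the action of PERK (3.60 ± 0.40, adjusted p = 2.44e-07), and Trib3, a pseudokinase induced by ATF4 and CHOP (2.77 ± 0.36, adjusted p = 1.95e-06). Ppp1r15a had 55.0 to 544 CPM (median 120) in HC11 DOX + DIP, 13.5 to 18.7 CPM in 4T1 and 14.6 to 18.6 CPM in HC11 DOX libraries. Trib3 had 82.0 to 511 CPM (median 238) in HC11 DOX + DIP, 23.9 to 41.8 CPM in 4T1 and 13.4 to 75.5 CPM in HC11 DOX libraries. For both genes all DIP libraries were above all HC11 DOX libraries. Ddit3, which encodes CHOP, rose by 2.76 ± 0.29 with DIP (adjusted p = 1.1e-07), also with no overlap between DIP and HC11 DOX libraries. Chac1 and Atf4 rose with DIP by 1.44 ± 0.31 and 1.03 ± 0.18 (adjusted p = 0.000679 and 7.91e-05). The rises of Ddit3, Chac1 and Atf4 were not refitted with libraries left out. In 4T1, 4 of 14 genes of that list were higher and 5 lower (64.3% called, below the share over all genes, median -0.10). There Chac1, a glutathione-degrading enzyme, and Atf6b, a relative of Atf6, were higher by 0.88 ± 0.29 and 0.55 ± 0.10 (adjusted p = 0.0105 and 9.68e-05). Creb3l2, a membrane-bound transcription factor, and Ddit3 were lower in 4T1, at -0.92 ± 0.22 and -0.57 ± 0.23 (adjusted p = 0.00108 and 0.035). The 4T1 call of Ddit3 was lost in 10 of 18 fits that left out 1 library.

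Of 20 other degradation genes, 12 rose and 1 fell with DIP (65.0% called, median 0.42), while 3 were higher and 13 lower in 4T1 (80.0% called, median -0.27). With DIP the largest rises were of Edem3, a relative of Edem1 (1.77 ± 0.26, adjusted p = 8.13e-06), and Ube2g2, a ubiquitin-conjugating enzyme (1.39 ± 0.33, adjusted p = 0.00176). Without libraries 8 and 10 the rise of Ube2g2 was 0.64. The 1 that fell was Vcp, the ATPase that pulls proteins out of the ER (-0.32 ± 0.10, adjusted p = 0.0149). In 4T1 the ubiquitin ligases Rnf139 (1.44 ± 0.07) and Rnf5 (1.201 ± 0.11) were highest, and the lectin Erlec1 (-1.66 ± 0.12) and the Vcp cofactor Nploc4 (-1.35 ± 0.10) lowest. These 4 had adjusted p of 1.75e-13, 7.54e-09, 3.35e-10 and 3.27e-10.

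Of 23 other folding enzymes, 6 rose and 8 fell with DIP (60.9% called, median -0.20), and 10 were higher and 8 lower in 4T1 (78.3% called, median 0.06). Fkbp11, a proline isomerase of secretory cells, was called in opposite directions, at -1.12 ± 0.27 with DIP (adjusted p = 0.00184) and 1.92 ± 0.20 in 4T1 (adjusted p = 4.91e-08). Its range was 2.62 to 9.997 CPM in HC11 DOX + DIP, 35.6 to 58.7 CPM in 4T1 and 7.64 to 23.4 CPM in HC11 DOX libraries. Also with DIP, Fkbp14 and Sdf2 rose by 1.43 ± 0.25 and 0.72 ± 0.10 (adjusted p = 6.49e-05 and 4.11e-06) and Prdx4, an ER peroxidase, fell by 1.49 ± 0.13 (adjusted p = 7.38e-09). In 4T1 the collagen chaperone Serpinh1 was higher by 1.64 ± 0.15 (adjusted p = 4.72e-09). Fkbp9 and Erp44 were lower there, at -0.78 ± 0.09 and -0.68 ± 0.07 (adjusted p = 1.25e-07 and 4.22e-08).

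Of 15 genes of N-glycan attachment and quality control, 2 rose and 5 fell with DIP (46.7% called, median -0.07), and 3 were higher and 7 lower in 4T1 (66.7% called, median -0.16). Both shares were near those over all genes. Ostc, a subunit of the oligosaccharyltransferase, had -1.07 ± 0.10 with DIP (adjusted p = 3.54e-08) and 0.42 ± 0.08 in 4T1 (adjusted p = 0.000143), the 4T1 call lost with total counts only (adjusted p = 0.0764). Dad1 had 0.66 ± 0.26 with DIP (adjusted p = 0.041) and Magt1 -0.51 ± 0.20 (adjusted p = 0.0385). Without DIP libraries 8 and 10 these were 0.12 and -0.37 (adjusted p = 0.413 and 0.0821). In 4T1 Dad1 was higher by 0.78 ± 0.10 (adjusted p = 5.86e-07), and the cargo receptor Lman1 and the transferase subunit Rpn1 were lower, at -1.11 ± 0.10 and -0.61 ± 0.07 (adjusted p = 2.4e-09 and 3.11e-07).

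Of 16 genes of protein import, 6 rose and 3 fell with DIP (56.2% called, median 0.12), and 9 were higher in 4T1 with the other 7 not called (56.2% called, below the share over all genes, median 0.23). Sec11c, a signal peptidase subunit, was higher in both, at 0.84 ± 0.11 with DIP (adjusted p = 1.74e-06) and 1.69 ± 0.07 in 4T1 (adjusted p = 5.67e-14). Its level was 24.3 to 42.6 CPM in HC11 DOX + DIP, 57.5 to 63.3 CPM in 4T1 and 15.9 to 22.3 CPM in HC11 DOX libraries, with no overlap between the groups. With DIP Sec62 rose by 0.75 ± 0.17 (adjusted p = 0.000972), and Spcs3, another signal peptidase subunit, and Sec61g, the third channel subunit, had -1.11 ± 0.12 and -0.61 ± 0.15 (adjusted p = 1.96e-07 and 0.0024). In 4T1 Sec61a2 was higher by 1.12 ± 0.07 (adjusted p = 3.55e-11).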

How the data were processed

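The files of all 28 libraries entered. Total RNA was purified with TRIzol and depleted of ribosomal RNA before library preparation, per the labels' protocols. Deposited by the authors were raw read counts, 1 whole number per gene, with no sign of normalisation. Per the submitters' processing notes, fastp 0.23.2, featureCounts 2.0.1 and the build GRCm39 were used. Which aligner was used, and whether counting used strand, is not given in the sources used here, so overlapping genes on opposite strands cannot be told apart. Symbols came from GENCODE vM21, and exonic lengths and overlaps from GRCm38, with no coordinates converted. Of 153 names in all lists, 152 matched by symbol and 1, Tusc3, did not.

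Groups came from the cell line and treatment labels. Libraries are numbered within a group as names only. Each comparison was fitted over its own groups with edgeR 4.0.16 under R 4.3.3 (filterByExpr, TMM, robust glmQLFit, glmQLFTest), with Benjamini-Hochberg adjustment over all genes tested. An adjusted p below 0.05 made a call. The SE is the size of the log2 fold change divided by the square root of F. CPM used TMM factors over all 28 libraries, so a ratio of CPM can differ slightly from the fitted fold change. Mean levels over a list used log2 (CPM + 0.01). The procedure was tested on simulated counts with known changes, drawn independently for each library. Such counts cannot show what likeness between libraries does to the calls. Libraries resembled each other in pairs within groups (DIP 3 and 5, 4 and 6, 7 and 9, 8 and 10; 4T1 2 and 4, 5 and 8; HC11 DOX 4 and 6, 7 and 9, 8 and 10), and if any share a culture the p-values of both comparisons are too small. At these depths a count of 0 allows up to 3 counts of the total, which covers counting error only.

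The members and lists were chosen with earlier results of these data known, so no list has a p-value. Values by library are written out for 6 members fixed by name (Hspa5, Hsp90b1, Xbp1, Ern1, Atf6, Eif2ak3) and for the largest called rise and fall in each role. From each list of other genes, the largest 2 called rises and falls at a mean log2 CPM of at least 2 are named, with levels of a few of them. The rises of Ddit3, Chac1 and Atf4 with DIP are given besides, outside that rule, and were not refitted under the alternatives below. The 5 promoters printed were chosen among called members with a match. Alternatives were other size factors, total counts only, no filter on low counts, all 3 groups together, DESeq2 1.42.0, limma 3.58.1 (voom), each library left out, DIP libraries 8 and 10 left out and 4T1 libraries 1 and 2 left out.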

Additional observations from a re-analysis of the deposited data

Results flagged for a closer look

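Of 96 checks of a member in a group, 5 found 1 library far from the rest of its group, and chance alone gives about 1 in 20. Of these, 2 were in HC11 DOX library 5, where Hsp90b1 had 299 CPM against 772 to 1068 CPM in the other libraries and Canx 282 CPM against 519 to 664 CPM. In HC11 DOX library 1, Dnajb9 had 12.6 CPM against 7.28 to 9.37 CPM. In HC11 DOX + DIP library 2, Dnajc3 had 131 CPM against 62.7 to 82.3 CPM. In 4T1 library 7, P4hb had 647 CPM against 546 to 590 CPM.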

How the results depend on the processing

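No paired analysis was possible because the labels give no replicate numbers. Leaving out 1 library at a time gave 11 to 12 members higher and 10 to 13 lower with DIP, and 7 to 8 higher and 15 to 17 lower in 4T1. Across the other settings with all libraries, 11 to 13 rose and 10 to 14 fell with DIP. In 4T1, 6 to 8 were higher and 15 to 21 lower, and the extremes came from total counts only. Signs turned only for members not called with all libraries. With DIP, Hyou1 was -0.057 with limma voom and -0.086 to 0.137 with 1 library left out. Without DIP libraries 8 and 10 it was -0.304 and then called (adjusted p = 0.0261), while Derl3 was -0.065 and Sec61a1 -0.027. In 4T1, Xbp1 was -0.013 with the other size factors and with DESeq2, -0.223 with total counts only (adjusted p = 0.00236) and -0.029 to 0.036 with 1 library left out. Dnajc3 was -0.160 with total counts only and -0.045 (without HC11 DOX library 5) to 0.124 with 1 library left out, and Pdia3 was 0.003 with no filter. The cause of these changes was not tested. With total counts only, Creld2, Canx, Pdia3, Pdia6 and Wfs1 were also called lower in 4T1, and Ern1, Sec61b and Ostc were no longer called. Without 4T1 libraries 1 and 2 no call changed. With DIP, the calls of Manf, P4hb, Dnajc3, Dad1 and Magt1 were lost under at least 1 setting with all libraries. Depth limits Derl3, at under 1 CPM in all libraries.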
